A study of Homo sapiens with 6 samples.

Results

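The replication-dependent histone genes were examined on expression arrays of HEK293T cells in prometaphase. Members were the rows of the deposited table whose gene name starts with HIST1H, HIST2H, HIST3H or HIST4H, and there were 64 of them among 37879 rows. The HIST1 cluster on chromosome 6 held 53, the HIST2 cluster on chromosome 1 held 7, HIST3 on chromosome 1 held 3 and HIST4 on chromosome 12 held 1. By class, 6 were H1, 15 were H2A, 18 were H2B, 11 were H3 and 14 were H4.

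HEK293T is a human embryonic kidney line that carries the SV40 large T antigen. Cells of the control group (3 arrays) were transfected with the empty vector, and cells of the Stau1 group (3 arrays) with a plasmid coding for Stau155-FLAG, an epitope-tagged isoform of the RNA-binding protein Staufen1. Both groups received nocodazole, which stops spindle assembly, at 50 ng/ml for 15 h per the labels (the methods of the study state more hours). The comparison asked whether transcript levels of arrested cells differ when Stau1 is also made from the plasmid. Total RNA was hybridized to Illumina HumanWG-6 v3 BeadChips. The labels do not say whether replicates were separate transfections, so p-values measure only the spread between these samples, which may be technical.

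Replication-dependent histone genes supply the proteins that package newly made DNA: H2A, H2B, H3 and H4 form the core of the nucleosome, and H1 binds the DNA between cores. They are transcribed mainly in S phase. Most of their transcripts have no intron and end in a stem-loop, held by the stem-loop binding protein SLBP, in place of a poly(A) tail, and they are degraded when DNA synthesis ends. Some of these genes also give polyadenylated transcripts, and the labelling kit used here copies RNA from the poly(A) tail. Variant histones, made also outside S phase, come from other genes, most of them with ordinary polyadenylated transcripts.

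Each array detected 12730 to 13469 rows (detection p under 0.05), and its median intensity over all rows was 83.0 to 102.2. Arrays of the Stau1 group lay closer to one another than arrays of the control group did, with median SDs over all tested rows of 0.12 and 0.17 on the log2 scale. Control replicates 1 and 3 had the lowest array weights in limma (0.399 and 0.603), so results are given below with and without single arrays. For STAU1, the gene on the plasmid, control arrays were at 11.32 ± 0.10 (SD, n = 3) and Stau1 arrays at 11.47 ± 0.06 (SD, n = 3). The 2 groups did not overlap, and Stau1 arrays lay wholly higher in 4.51% of all tested rows. The difference for STAU1 did not pass in limma (adjusted p = 0.999). By exact permutation, two-sided, p was 0.1, which is as low as 3 arrays against 3 can go. Whether the STAU1 row reads the plasmid transcript was not checked. Of 10 genes known from this line, 8 were detected and tested, among them NEFL, VIM and CDH2, while PAX2 and EYA1 were not. Among marker genes of other cell types, PTPRC, CD3E, ALB, APOA1, HBB and GFAP were detected on no array, and INS and COL1A1 were tested. All 20 mitotic genes listed were detected on all 6 arrays.

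Histone rows ranged from clear signal to background. The table gives a detection p, which compares a row's intensity with negative control beads of the same array, and rows under 0.05 on at least 3 arrays were tested. Of the 64 histone rows, 30 (46.9%) were tested, against 13285 of all rows (35.1%). A stricter detection p, under 0.01 on all arrays, left 13 histone rows, and many of the other tested rows lay close to background. Of the histone rows, 26 were detected on all 6 arrays, 4 on 5 arrays, 3 on 2 arrays, 8 on 1 array and 23 on no array. The rows tested were therefore not picked by a signal in 1 group alone. By class, 2 of 6 H1 rows were tested (HIST1H1A and HIST1H1C), 8 of 15 H2A, 7 of 18 H2B, 6 of 11 H3 and 7 of 14 H4. HIST1H1B, HIST1H1D, HIST1H1E and the testis H1 gene HIST1H1T were detected on no array. The same held for HIST1H2AA, HIST1H2AB, HIST1H2AD, HIST1H2AE, HIST1H2AJ, HIST1H2AK and HIST2H2AB of class H2A, and for HIST1H2BA, HIST1H2BB, HIST1H2BI, HIST2H2BF and HIST3H2BB of class H2B. It also held for the H3 rows HIST1H3G and HIST3H3 and the H4 rows HIST1H4A, HIST1H4F, HIST1H4G, HIST1H4I and HIST1H4L. Rows detected on 1 array were HIST1H2BD, HIST1H2BG, HIST1H2BH, HIST1H2BO, HIST1H3I, HIST1H4D, HIST2H3C and HIST4H4, and those on 2 arrays were HIST1H2BE, HIST1H2BL and HIST1H3B.

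The filter acts differently on HIST1H2BD, which averages several probes and carries a combined detection p. Its deposited intensities, here and below listed in the order of replicates 1, 2 and 3, were 249.6, 271.2 and 703.1 in control and 436.1, 482.2 and 440.0 in Stau1 arrays, yet it passed detection on 1 array and was not tested. In the fit with no filter its log2 change was 0.32 (SE 0.23). Of the histone rows, 60 rested on 1 probe; HIST1H2AG, HIST1H2BD, HIST1H2BK and HIST2H2AA3 did not. Genes of a class are nearly identical in coding sequence and probe sequences were not used here, so a row may also read its relatives. Duplicated genes go further: the 300-base promoter of HIST2H4A is the same as that of HIST2H4B over all 300 bases, and HIST2H2AA3 shares a run of 299 bases with HIST2H2AA4. The rows named for these genes may be unable to tell the copies apart.

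Promoters of the members shared sequence features. RefSeq promoters (GRCh38.p14, 250 bases before to 50 after the start of a gene) were found for 59 of the 64 members, all of which matched a RefSeq gene. The octamer ATTTGCAT, searched on both strands, is the site known for the factor Oct-1 in H2B promoters. It was present in 25 of 59 members (42.4%) and in 1.77% of 35116 promoters of all genes. By class the octamer was in 14 of 18 H2B, 10 of 14 H2A and 1 of 9 H3 promoters, and in none of 6 H1 and 12 H4 promoters. CCAAT was found in 84.7% of the members against 34.6% of all promoters, though in only 3 of 12 H4 promoters. TATAAA was found in 66.1% against 11.5%. No octamer overlapped either of the other motifs. A match is a description of the letters only.

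The windows printed here hold the octamers of 5 tested H2B genes. H2B and H2A genes often lie head to head, and some of these pairs share 1 octamer between both promoters, while others have none. The octamer window of HIST1H2BF, also a tested H2B gene, is given by position further below. Capitals mark the octamer, and each window is written 5′ to 3′ on the strand of the H2B gene (GRCh38.p14). HIST2H2BE is at chr1:149886710-149886739 on the minus strand, HIST1H2BC at chr6:26124031-26124060 (minus), HIST1H2BJ at chr6:27132824-27132853 (minus), HIST1H2BK at chr6:27146886-27146915 (minus) and HIST1H2BM at chr6:27814963-27814992 (plus).
HIST2H2BE: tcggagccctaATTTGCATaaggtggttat
HIST1H2BC: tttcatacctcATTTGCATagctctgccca
HIST1H2BJ: ctcttcaccttATTTGCATaagcgattcta
HIST1H2BK: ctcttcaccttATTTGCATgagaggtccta
HIST1H2BM: ttctactcctaATTTGCATaataacattta
The octamer began 46 bases before the start of HIST2H2BE, 123 before HIST1H2BC, 47 before HIST1H2BJ, 46 before HIST1H2BK and 48 before HIST1H2BM. Read from the other strand, the first of these windows lies in the promoter of HIST2H2AC, the second in that of HIST1H2AC and the third in that of HIST1H2AG.

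The levels of histone rows differed most among the control arrays themselves. Log2 intensities after background correction and quantile normalization spanned more than 2-fold over the 6 arrays in 10 of the 30 tested histone rows (33.3%), against 2.66% of all tested rows. The median SD within the control group was 0.31 over histone rows and 0.17 over all rows, and within the Stau1 group it was 0.12 for both. Control replicate 3 was the highest of the 6 arrays in 18 of 30 histone rows (60%), against 14.8% of all rows. The lowest array was control replicate 1 or 2 in 25 of 30 (83.3%), against 45.5% of all rows. In 18 of 30 rows (60%) all 3 Stau1 arrays fell inside the range of the controls, against 32.8% of all rows. Rows are not independent replicates, and these shares are descriptions with no test. They hold for the background inferred from rows of 1 probe and were not counted under another. With the background inferred from all rows, histone rows deviated from their means by medians of only -0.0201, -0.0300 and 0.0362 in the control arrays.

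**Figure D1:**
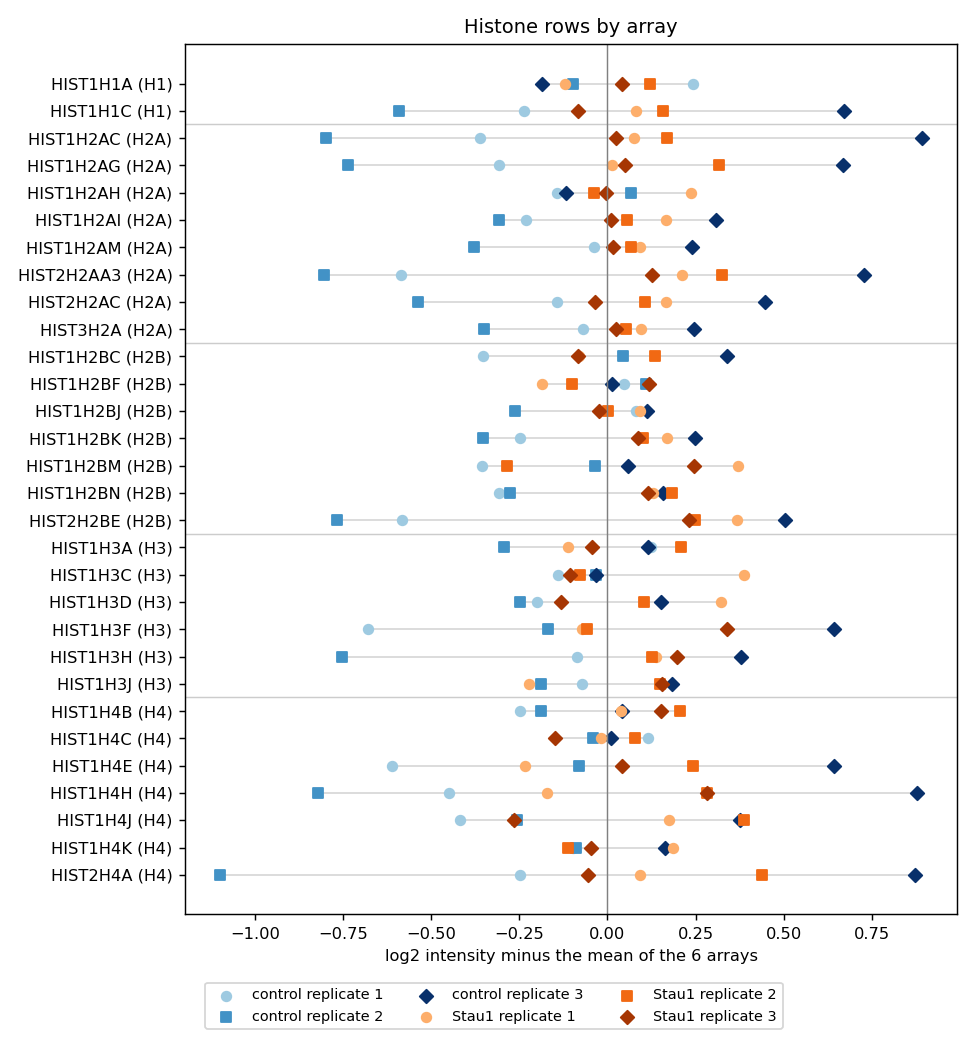
Log2 intensity of each of the 30 tested histone rows on each array, as the difference from that row's mean over the 6 arrays (horizontal axis), with rows ordered by class and a grey line for each row's range. Control replicate 3 (dark blue) was the highest array in 18 rows, and control replicate 1 or 2 (lighter blue) the lowest in 25, with Stau1 arrays (orange to brown) mostly between them.

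The linker histone rows behaved unlike each other. HIST1H1C had a log2 intensity of 9.02, 8.66 and 9.92 in control and of 9.33, 9.41 and 9.17 in Stau1 arrays. The Stau1 arrays lay inside the control range, which was 2.40-fold wide. HIST1H1A, with detection p-values from 0.0224 to 0.0408, was at 5.88, 5.54 and 5.46 in control and 5.52, 5.76 and 5.68 in Stau1 arrays. Here control replicate 3 was the lowest array. The log2 change, Stau1 minus control, was 0.10 (SE 0.24) for HIST1H1C and 0.03 (SE 0.15) for HIST1H1A.

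Among H2A rows, the HIST2 member HIST2H2AA3 had the largest change. It stood at 9.17, 8.95 and 10.48 in control and 9.96, 10.08 and 9.88 in Stau1 arrays, a change of 0.44 (SE 0.28). The first 2 controls were below every Stau1 array and the third was above every one. In deposited intensity units the same row read 501.7, 512.7 and 1858 in control and 981.1, 1247 and 1073 in Stau1 arrays, with standard errors over beads from 18.7 to 52.3. In HIST1H2AG, too, control replicates 1 and 2 were the lowest and control replicate 3 the highest array, at 6.35, 5.92 and 7.33 in control and 6.68, 6.98 and 6.71 in Stau1 arrays (change 0.25, SE 0.27). The same was seen in HIST1H2AI over a narrower range, at 5.61, 5.53 and 6.14 against 6.003, 5.89 and 5.85 (change 0.16, SE 0.17). HIST1H2AH was the exception of the class: it was at 5.90, 6.11 and 5.92 in control and 6.28, 6.001 and 6.03 in Stau1 arrays, and its highest array was Stau1 replicate 1. In the other 7 tested H2A rows control replicate 3 was the highest array. Over the class the changes ran from 0.12 to 0.44, with a median of 0.16.

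HIST2H2BE, an H2B gene of the HIST2 cluster, had the largest change of all tested histone rows. It was at 6.03, 5.84 and 7.11 in control and 6.98, 6.86 and 6.84 in Stau1 arrays. The change was 0.56 (SE 0.26), with an unadjusted p of 0.0496 and an adjusted p of 0.999 in limma, and the groups overlapped through control replicate 3. The size of this change turned on the background: it was 0.30 with no background correction and smaller still with the background inferred from all rows. HIST1H2BK was at 13.06, 12.95 and 13.56 in control and 13.48, 13.41 and 13.40 in Stau1 arrays (change 0.24, SE 0.13), again with only control replicate 3 above the Stau1 arrays. HIST1H2BN stood at 5.65, 5.68 and 6.11 against 6.08, 6.14 and 6.07 (change 0.28, SE 0.16). Its control replicate 3 lay among the Stau1 arrays. HIST1H2BM was at 5.59, 5.92 and 6.01 against 6.32, 5.67 and 6.19 (change 0.22, SE 0.19), with an SD of 0.22 in control and 0.35 in Stau1 arrays. The remaining tested H2B rows had changes of 0.05 (HIST1H2BJ), -0.02 (HIST1H2BC) and -0.11 (HIST1H2BF), each within its SE of 0.12, 0.18 and 0.14. HIST1H2BL, detected only on Stau1 replicates 1 and 2, was not tested. The class median was 0.22.

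Among H3 rows the largest change was that of HIST1H3H. It was at 7.33, 6.67 and 7.80 in control and 7.56, 7.55 and 7.62 in Stau1 arrays (change 0.31, SE 0.23), with all Stau1 arrays inside the control range. HIST1H3F was at 5.44, 5.95 and 6.76 against 6.05, 6.06 and 6.46 (change 0.14, SE 0.26), also inside it. HIST1H3D was at 5.66, 5.61 and 6.01 against 6.18, 5.96 and 5.73 (change 0.20, SE 0.17). In HIST1H3C, with 5.92, 6.03 and 6.03 in control and 6.45, 5.98 and 5.96 in Stau1 arrays, the change of 0.14 (SE 0.16) came with a single high array, Stau1 replicate 1. The change was 0.04 (SE 0.16) for HIST1H3A and 0.05 (SE 0.16) for HIST1H3J, and the class median was 0.14.

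H4 rows held the widest and the narrowest ranges. HIST2H4A was at 9.35, 8.50 and 10.47 in control and 9.69, 10.04 and 9.54 in Stau1 arrays (change 0.32, SE 0.34). Its range of 3.92-fold was the widest of the 30 rows and lay wholly within the control group. In deposited intensities it read 564.2, 393.8 and 1848 in control and 825.4, 1214 and 871.5 in Stau1 arrays, with bead standard errors from 17.3 to 55.3. HIST1H4H was at 6.92, 6.55 and 8.25 against 7.20, 7.65 and 7.65 (change 0.26, SE 0.33). This was a range of 3.25-fold, also between control replicates 2 and 3. HIST1H4J was at 5.74, 5.90 and 6.53 against 6.33, 6.54 and 5.89 (change 0.20, SE 0.22), and HIST1H4B at 5.62, 5.68 and 5.92 against 5.91, 6.08 and 6.03 (change 0.26, SE 0.15). In both, control replicate 3 fell among the Stau1 arrays. HIST1H4C, chosen after its values were seen because it was flat, spanned 1.20-fold with a change of -0.06 (SE 0.08). The change was 0.02 (SE 0.13) for HIST1H4K and 0.03 (SE 0.25) for HIST1H4E. The class median was 0.20.

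**Figure D2:**
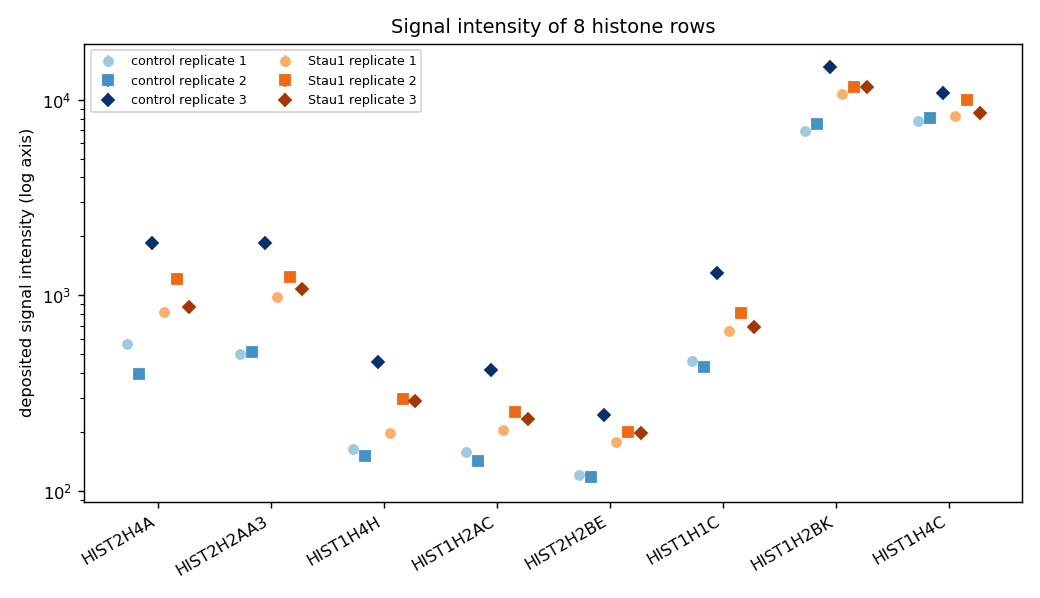
Deposited signal intensity (log axis, before any normalization) of 8 histone rows on the 6 arrays, chosen after their values were seen. In each row control replicate 3 (dark blue diamond) was the brightest array before normalization. It read 1848 for HIST2H4A, where the other 5 arrays read from 393.8 to 1214. After normalization the highest array for HIST1H4C was control replicate 1.

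Set against the Stau1 plasmid, no histone row passed the test. At an adjusted p under 0.05, limma called 0 of the 30 tested histone rows (background 0% of 13285), and the lowest adjusted p was 0.999. At an unadjusted p under 0.05 there was 1, HIST2H2BE (3.33%, background 3.73%). In 0 of 30 rows did the 3 Stau1 arrays lie wholly above or below the 3 controls, against 7.91% of all tested rows (4.51% above and 3.4% below). The methods' t-test also found 0, after Benjamini-Hochberg adjustment and at 2-fold with an unadjusted p under 0.05. The changes nevertheless had mostly 1 sign: 27 of 30 (90%) were above 0, against 49.4% of all rows. Their median was 0.15, and that of all rows was -0.00214. That median was 0.0105 with the background inferred from all rows, 0.0835 with no background correction and 0.0502 over all 64 rows with no filter. The 3 below 0 were HIST1H2BC, HIST1H2BF and HIST1H4C. Members share arrays and may share probe targets, so this count is not 30 independent observations. In RNA from a whole culture, more cells that hold a transcript and more of it per cell cannot be told apart.

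**Figure D3:**
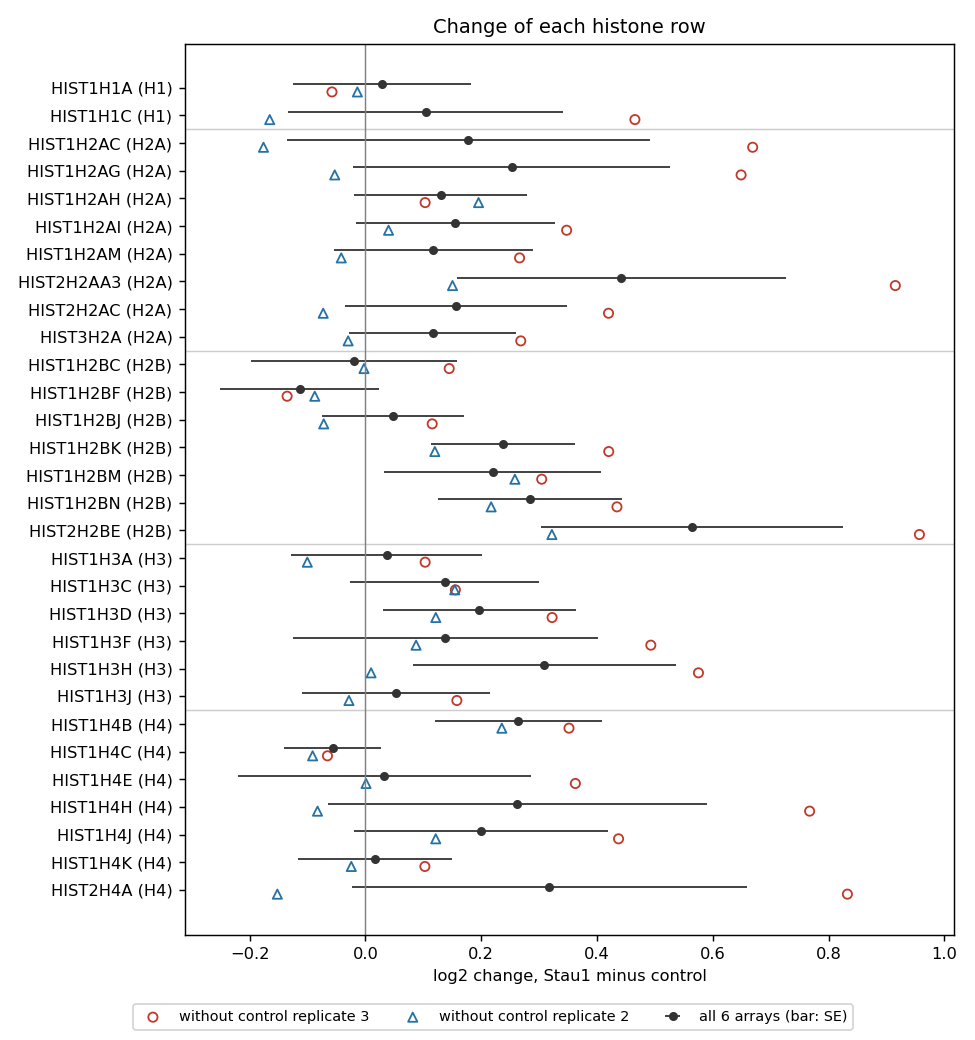
Log2 change, Stau1 minus control, of the 30 tested histone rows by class: black points with bars of 1 SE from all 6 arrays, red circles without control replicate 3 and blue triangles without control replicate 2. The median was 0.15 with all arrays, 0.35 without control replicate 3 and -0.00830 without control replicate 2.

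The size of these changes turned on single control arrays. Without control replicate 3, with 2 control arrays against 3 Stau1 arrays, the median change of the histone rows was 0.35, and 27 of 30 were above 0. In that fit limma called 2 of 30, both higher with Stau1 (background 0.294% of rows called in either direction and 0.263% called higher). They were HIST2H2AA3, with a change of 0.92 (adjusted p = 0.0105), and HIST2H2BE, with a change of 0.96 (adjusted p = 0.0286). HIST1H2BK was at an adjusted p of 0.0519 in limma. At an unadjusted p under 0.05 there were 15 of 30 (50%), all higher, where 12.7% of all rows were at that level and 7.16% were higher. All 4 tested HIST2 rows were among them. By class they were 5 of 8 H2A, 4 of 7 H4, 3 of 7 H2B, 2 of 6 H3 and 1 of 2 H1 rows. Control replicate 3 was the highest array in 18 of 30 histone rows, so leaving it out lowers the control mean in them. The counts without it follow at least in part from that pattern and are not a separate result.

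Leaving out control replicate 2 instead left the changes centred near 0. The median was then -0.00830, only 14 of 30 changes were above 0, and limma called 0 histone rows. HIST2H4A went from 0.83 without control replicate 3 to -0.15 without control replicate 2, and HIST1H4H from 0.77 to -0.08. HIST2H2BE kept its direction (0.96 and 0.32), as did HIST2H2AA3 (0.92 and 0.15). Without control replicate 1 the median was 0.10, and leaving out a Stau1 array gave medians of 0.11, 0.15 and 0.18 for replicates 1, 2 and 3, with 0 histone rows called each time.

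By cluster, the 4 tested HIST2 rows (HIST2H2AA3, HIST2H2AC, HIST2H2BE and HIST2H4A) had a median change of 0.38, and the 25 tested HIST1 rows one of 0.14. Without control replicate 3 these medians were 0.87 and 0.32, and without control replicate 2 they were 0.04 and -0.00260. The only tested HIST3 row, HIST3H2A, had a change of 0.12 (SE 0.14). In each of the 4 HIST2 rows control replicate 3 was the highest array and the Stau1 arrays lay inside the control range. A difference between clusters was not tested.

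Head-to-head neighbours did not all vary alike. RefSeq gene order gave 17 neighbouring pairs of members transcribed away from each other, 11 of them H2A with H2B; both genes were tested in 4 pairs, 1 in 9 and none in 4. HIST2H2BE and HIST2H2AC, whose promoters share the first window printed above, spanned 2.41-fold and 1.98-fold over the arrays. In the other tested head-to-head pairs with a shared octamer, HIST1H2BC spanned 1.62-fold and HIST1H2AC 3.23-fold, while HIST1H2BJ spanned 1.30-fold and HIST1H2AG 2.65-fold. In these 3 head-to-head pairs all genes were highest on control replicate 3. The fourth pair, HIST1H1A and HIST1H3A, has no octamer, spanned 1.34-fold and 1.42-fold, and peaked on other arrays. HIST1H2BF and HIST1H3D, which are not next to each other in that gene order, also share an octamer window (chr6:26199394-26199423). They spanned 1.23-fold and 1.49-fold and were highest on Stau1 replicate 3 and Stau1 replicate 1. Tested rows with the octamer ran from 1.23-fold (HIST1H2BF) to 3.23-fold (HIST1H2AC), while HIST2H4A, whose promoter has none, spanned 3.92-fold. Some rows of narrow range lay close to background: the highest detection p was 0.0514 for HIST1H2BC, 0.0408 for HIST1H1A and 0.0738 for HIST1H2BF. HIST1H2BJ, also narrow, was well above background. The part of signal level in these ranges was not tested.

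Other genes of the pathway were read from lists chosen by function. Of 17 variant histone genes 15 matched a row and 11 were tested; 0 passed in limma, with 0 at an unadjusted p under 0.05. Of the 11 changes 5 were above 0 and 6 below, with a median of -0.00363. H3F3B, which encodes the variant H3.3, was at 10.76, 10.84 and 10.67 in control and 10.51, 10.76 and 10.65 in Stau1 arrays (change -0.12, SE 0.10). The difference was 0.18 (SE 0.18) for H2AFV and 0.15 (SE 0.15) for H2BFM. The median SD among controls was 0.13 in this list, against 0.31 for the replication-dependent rows. Most tested genes of this list were brighter than most replication-dependent rows, and the part of signal level in this contrast was not tested.

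Factors that make, process or degrade histone mRNA gave 18 tested genes of 21, of which 0 passed in limma and 0 had an unadjusted p under 0.05. Their median change was 0.02, with 10 above 0 and 8 below. The difference, Stau1 minus control, was 0.28 (SE 0.16) for UPF1, a helicase needed for histone mRNA decay, and 0.25 (SE 0.15) for SYMPK, a scaffold of the cleavage complex. For MIF4GD, a partner of SLBP, it was -0.21 (SE 0.14). SLBP, named here outside the rule for printed genes, was at 10.21, 10.18 and 10.19 in control and 10.11, 10.17 and 10.18 in Stau1 arrays. The Stau1 arrays lay just below the controls, and the difference of -0.04 (SE 0.10) was within its error. Of the 18 tested factors, Stau1 arrays lay wholly below the controls in 1 (SLBP) and wholly above in 1 (SYMPK). The shares of all tested rows were 3.4% and 4.51%. Histone chaperones gave 16 tested of 18 with 0 called and a median of -0.00424; the difference was 0.41 (SE 0.20) for CHAF1A, a subunit of the chaperone that loads histones behind the replication fork, -0.20 (SE 0.13) for DAXX, an H3.3 chaperone, and -0.21 (SE 0.17) for RBBP4, which binds H4.

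S phase genes had their lowest and highest medians on the same control arrays as the histone rows. Of 30 listed, 28 were tested and 0 passed in limma; POLE and CDT1 had an unadjusted p under 0.05, with differences of 0.35 (SE 0.13) and 0.36 (SE 0.16). These are 2 of 28, both higher, where 3.73% of all tested rows were at that level and 2.41% were higher. POLE encodes a DNA polymerase subunit and CDT1 a factor that licenses origins. CDT1 was at 10.68, 10.27 and 11.06 in control and 10.96, 11.09 and 11.02 in Stau1 arrays, so that only control replicate 3 reached the Stau1 arrays. For POLA1, a subunit of the polymerase that starts DNA strands, the difference was 0.18 (SE 0.12). Control replicate 3 was the highest array in 13 of 28 S phase genes (46.4%) and control replicate 1 or 2 the lowest in 22 (78.6%). The list's median change was 0.05 with all arrays, 0.09 without control replicate 3 and 0.00305 without control replicate 2.

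The medians of the mitotic genes did not have these extremes, at 0.04, -0.02 and -0.01 in the control arrays. Single mitotic genes still varied, some up and some down. Their median SD among controls was 0.21, against 0.15 for the S phase genes. All 20 were tested, 0 passed in limma, and the 2 with an unadjusted p under 0.05 were lower with Stau1, as were 1.32% of all tested rows at that level. They were TOP2A, which untangles chromosomes (difference -0.41, SE 0.15), and CENPF, a kinetochore protein (-0.36, SE 0.15). For CDC2, the mitotic kinase, the difference was -0.30 (SE 0.15). The list's median was -0.03, with 6 changes above 0 and 14 below. Control replicate 3 was the highest array in 4 of 20 (20%).

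Median deviations by array put these lists side by side. Histone rows deviated from their own means by a median of -0.23, -0.27 and 0.25 in control and 0.09, 0.12 and 0.03 in Stau1 arrays. For the S phase genes it was -0.07, -0.08 and 0.09 in control and -0.00595, 0.04 and 0.02 in Stau1 arrays. The mitotic genes ran from -0.07 to 0.04 over the 6 arrays. Control replicates 1 and 2 were thus lowest and control replicate 3 highest for both the histone and the S phase lists. The size of the histone medians turned on the background: inferred from all rows, it gave -0.0201, -0.0300 and 0.0362 in the control arrays for the histone rows and -0.0681, -0.0805 and 0.0663 for the S phase genes. The wider range of the histone rows was therefore not kept under that background, while the order of the 3 control arrays was. The part of cell cycle stage in the histone values was not tested.

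**Figure D4:**
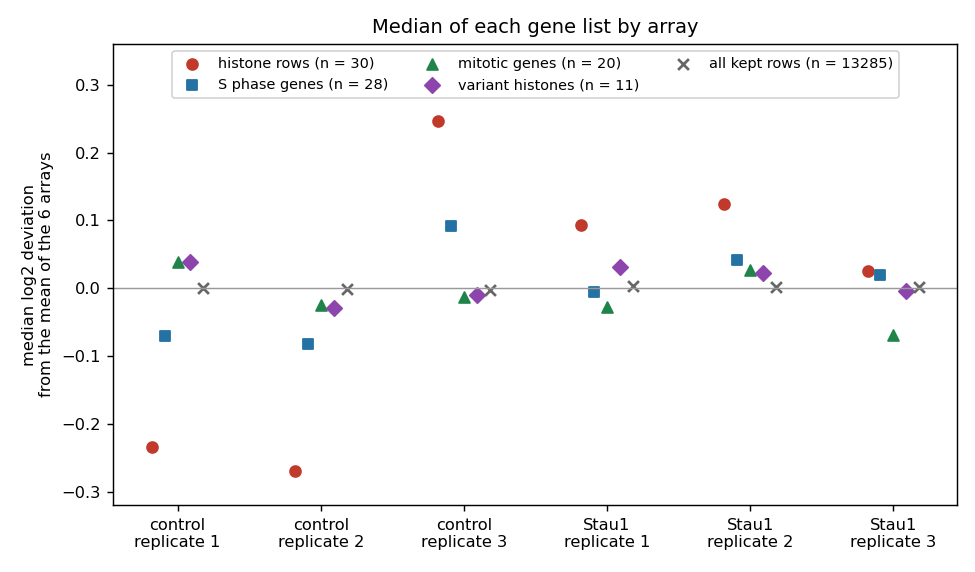
Median log2 deviation from each row's mean over the 6 arrays (vertical axis) for 5 sets of rows on each array. Histone rows (red circles) ran from -0.27 in control replicate 2 to 0.25 in control replicate 3, S phase genes (blue squares) from -0.08 to 0.09 on the same arrays, and the median of all tested rows (grey crosses) stayed close to 0.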

How the data were processed

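Total RNA of 6 samples was measured on single-colour arrays. The authors deposited a BeadStudio gene table with signal intensity per gene and array, neither background-corrected nor normalized, a detection p-value deposited beside each intensity, and the standard error over beads and the number of beads, both deposited and used as measures of signal precision. A row is the mean over the probes of 1 gene. Every value column belonged to 1 sample, and negative control beads were not used here.

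Samples were grouped by the transfection in their labels. Intensities were corrected by normexp (limma 3.58.1, R 4.3.3) with an offset of 16, the background being inferred from the detection p of 30932 rows with 1 probe (p in steps of 1 in 759, tolerance 0.002), then quantile normalized and taken to log2. Rows detected (p under 0.05) on 3 or more of 6 arrays were tested with lmFit and eBayes (variance trend), with Benjamini-Hochberg adjustment over all 13285 of them. Changes are Stau1 minus control in log2. The members and gene lists were chosen with earlier results of these data known. Arrays were printed one by one for up to 4 tested rows per histone class with the lowest unadjusted p, and 3 genes were named from each other list by the same measure. Listed genes were matched by symbol or RefSeq synonym (ARS2, THEX1, NFKBIL2 and C6ORF167 by synonym; H3F3C and H2BFS had no row). The fit was tested on simulated data. The number of arrays limits the precision. Alternatives changed the background (none, or inferred from all rows), the offset (50), the normalization (cyclic loess or median scaling), the filter (none, or p under 0.01 on every array) and the model (array weights, replicate block, no variance trend). Each array was also left out in turn, and the t-test of the study's methods, stated there for immunoprecipitated RNA, was run. Promoters and gene names came from RefSeq (GRCh38.p14). Figures were drawn with matplotlib 3.10.9.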

Additional observations from a re-analysis of the deposited data

How the results depend on the processing

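With all 6 arrays, limma called 0 rows and 0 histone rows under each of the 10 other settings run, and the methods' t-test gave 0 after adjustment and 0 past 2-fold. Of 168 changes of the 18 histone rows printed by array, 167 kept their direction; HIST1H1C went to -0.00527 with the background from all rows. That background also moved the H2B median to 0.0153 and the array medians of the histone rows to 0.00903 and 0.0107 in Stau1 replicates 1 and 2. Under it the control array medians were -0.0201, -0.0300 and 0.0362, the class medians 0.0124 (H2A), 0.00641 (H3), 0.0104 (H4) and -0.00203 (H1, turned), and the change of HIST2H2BE 0.0408. The medians of Stau1 replicates 1 and 2 were 0.0241 and 0.195 with median scaling, and 0.0119 and 0.0575 with no filter. Median scaling gave list medians of 0.0807 for variant histones, 0.111 for histone mRNA factors, 0.0790 for chaperones, 0.145 for S phase genes and 0.0507 for mitotic genes, beside a median over all rows of 0.0679. A detection p under 0.01 on all arrays left 13 histone rows, with 1 H3 row at 0.309 and no value for STAU1. Array weights gave -0.0412 for chaperones and -0.00191 for H2AFV. The causes were not tested, apart from the fewer rows the stricter filter leaves.

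With 1 array left out, limma called 0 to 39 rows in all and 0 to 2 histone rows, the upper values without control replicate 3. Of 108 histone changes 99 kept their direction. The ranges were -0.165 to 0.465 for HIST1H1C, -0.0579 to 0.156 for HIST1H1A, -0.0531 to 0.649 for HIST1H2AG, -0.0233 to 0.223 for HIST1H3C, -0.167 to 0.493 for HIST1H3F, -0.152 to 0.833 for HIST2H4A and -0.0829 to 0.767 for HIST1H4H. Class medians ran from -0.0897 to 0.204 (H1), -0.0359 to 0.384 (H2A), 0.0900 to 0.304 (H2B), 0.0485 to 0.240 (H3) and -0.0245 to 0.363 (H4). Array medians of the histone rows ran from 0.00917 to 0.187, 0.0471 to 0.191 and -0.0477 to 0.0962 in Stau1 replicates 1, 2 and 3. List medians ran from -0.0412 to 0.0796 for histone mRNA factors and -0.0730 to 0.00526 for chaperones.

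Same-numbered arrays of the groups did not deviate together (r = 0.02, 0.26 and -0.14 over rows), and shared numbers were not taken as pairs. Under the replicate block 0 rows and 0 histone rows passed in limma. No slide is named in the table, which left no block by slide to run. The detection filter left out 34 of the 64 histone rows, which were tested only with no filter. Limma then called 0 of 64 and 0 of all 37879 rows, with 2 histone rows and 1565 rows in all (4.13%) at an unadjusted p under 0.05. Without control replicate 3 as well, it called 3 of 64 and 34 of all rows (0.0898%).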
